A study of Mesocricetus auratus with 10 samples.

Results

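The genes of 7 solute carrier families that carry amino acids and related molecules, SLC1, SLC3, SLC6, SLC7, SLC36, SLC38 and SLC43, were examined in the livers of golden hamsters (Mesocricetus auratus) with diet-induced fatty liver. Members were all genes on the array whose name begins with the symbol of one of these families, 53 of the 14434 named genes, and each was read by the brightest of its probes. Of the 53, 52 passed the filter on dim probes, as did 13827 of all named genes. The exception, SLC6A15, was well above background on 5 of 20 arrays in the HFD RNA and on 4 in the pool. The animals were males, 10 on a high fat diet (HFD), each measured by itself, and 10 on a standard diet (STD), whose liver RNA was combined into 1 pool. No genotype, strain, age or length of feeding is given in the labels. Each HFD animal was hybridised against the pool on 2 arrays of 2 colours, with its RNA in the red dye Cy5 on one and in the green dye Cy3 on the other. The value of a gene in an animal is the mean over both arrays of the log2 ratio of HFD over STD pool, so that 1 is a doubling and -1 a halving. The pool is a fixed reference: it shows the mean of the STD animals and leaves out their spread. In bulk liver RNA, fewer cells of a type and less RNA per cell cannot be told apart.

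Cells take up amino acids through carriers that differ in substrate and in driving ion. SLC1 proteins bring in glutamate and neutral amino acids with sodium, SLC38 proteins carry glutamine, alanine and other small neutral amino acids, many SLC7 proteins are light chains that work bound to an SLC3 heavy chain, SLC43 proteins include sodium-independent carriers of leucine and similar amino acids, and SLC36 proteins move small amino acids with protons. SLC6 is wider: besides amino acids its proteins carry taurine, betaine, creatine and neurotransmitters. In liver these carriers feed the urea cycle, gluconeogenesis, glutathione synthesis and bile acid conjugation, the last with taurine, and glutamine handling differs between the portal and central ends of the lobule. The rule also took in SLC7A6OS, a gene named for its place opposite SLC7A6, which is no transporter. SLC6A20, SLC6A20A and SLC6A20B are 3 names on this array for imino acid carriers of the proline type. RefSeq's table for assembly BCM_Maur_2.0 held 50 of the 53 symbols. The others were SLC6A20A, SLC6A20B and SLC7A13.

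The probes are 60 bases long and were designed on assembled hamster transcripts, which the files name but place nowhere in a genome. The sequences below are shown because the ratio of several members depends on which of them is read. They are given 5′ to 3′ as the array's table lists them. The first 3 lie on 1 assembled transcript of SLC6A6, the taurine transporter, and no letter is marked. The first of them is the brightest and the one tested.
SLC6A6 probe 86130: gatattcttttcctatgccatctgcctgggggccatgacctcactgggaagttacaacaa
SLC6A6 probe 86131: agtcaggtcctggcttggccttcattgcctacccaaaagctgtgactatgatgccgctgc
SLC6A6 probe 86129: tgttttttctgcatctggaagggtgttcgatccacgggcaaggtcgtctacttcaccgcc
The next pair lies on 1 transcript of SLC6A8, the creatine transporter, with the tested probe first, and again no letter is marked.
SLC6A8 probe 84384: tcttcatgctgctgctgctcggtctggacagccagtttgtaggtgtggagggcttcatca
SLC6A8 probe 84385: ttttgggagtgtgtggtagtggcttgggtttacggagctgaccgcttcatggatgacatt
The 2 probes of SLC38A4 come from different assembled transcripts, with the tested one first and none of its letters marked.
SLC38A4 probe 60024: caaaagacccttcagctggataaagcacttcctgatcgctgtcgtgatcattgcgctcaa
SLC38A4 probe 43610: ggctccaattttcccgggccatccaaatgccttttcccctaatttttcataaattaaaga
In the last 2 pairs capitals mark the stretch in which a probe is the reverse complement of its partner, 32 bases in the first pair and 26 in the second, so that partners read opposite strands of the same sequence.
SLC6A20A probe 33888: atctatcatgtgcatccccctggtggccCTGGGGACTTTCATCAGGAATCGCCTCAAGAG
SLC6A20 probe 13882: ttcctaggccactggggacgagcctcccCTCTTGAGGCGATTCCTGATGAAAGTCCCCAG
SLC6A12 probe 5675: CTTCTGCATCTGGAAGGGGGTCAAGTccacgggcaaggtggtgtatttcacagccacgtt
SLC6A12 probe 33518: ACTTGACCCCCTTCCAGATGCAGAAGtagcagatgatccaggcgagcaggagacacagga

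Most of these genes moved little. Of the 52 tested, 11 were higher and 15 lower on the high fat diet, with adjusted p-values under 0.05 (limma, against 0, Benjamini-Hochberg over all 13827 genes), which is 21.2% higher and 28.8% lower. Over all genes tested 31.4% were higher and 28.9% lower, 60.3% in all, against 50% of these members. The median ratio was 0.010 over the 52 members and 0.0082 over all genes, and the median size of a called change was 0.19 in both. SLC6A6 alone passed a 2-fold change. All 10 animals lay on the same side of 0 for 12 of the 26 called members. The share of all called genes for which this held is not given here, so this count shows nothing particular to the members. In SLC43 2 of 3 and in SLC38 5 of 9 members were lower, with family medians of -0.56 and -0.16. SLC7 had 4 higher and 1 lower of 13, SLC6 2 higher and 4 lower of 16, SLC1 1 higher and 2 lower of 6, SLC3 1 higher of 2, and SLC36 1 each way of 3.

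**Figure D1:**
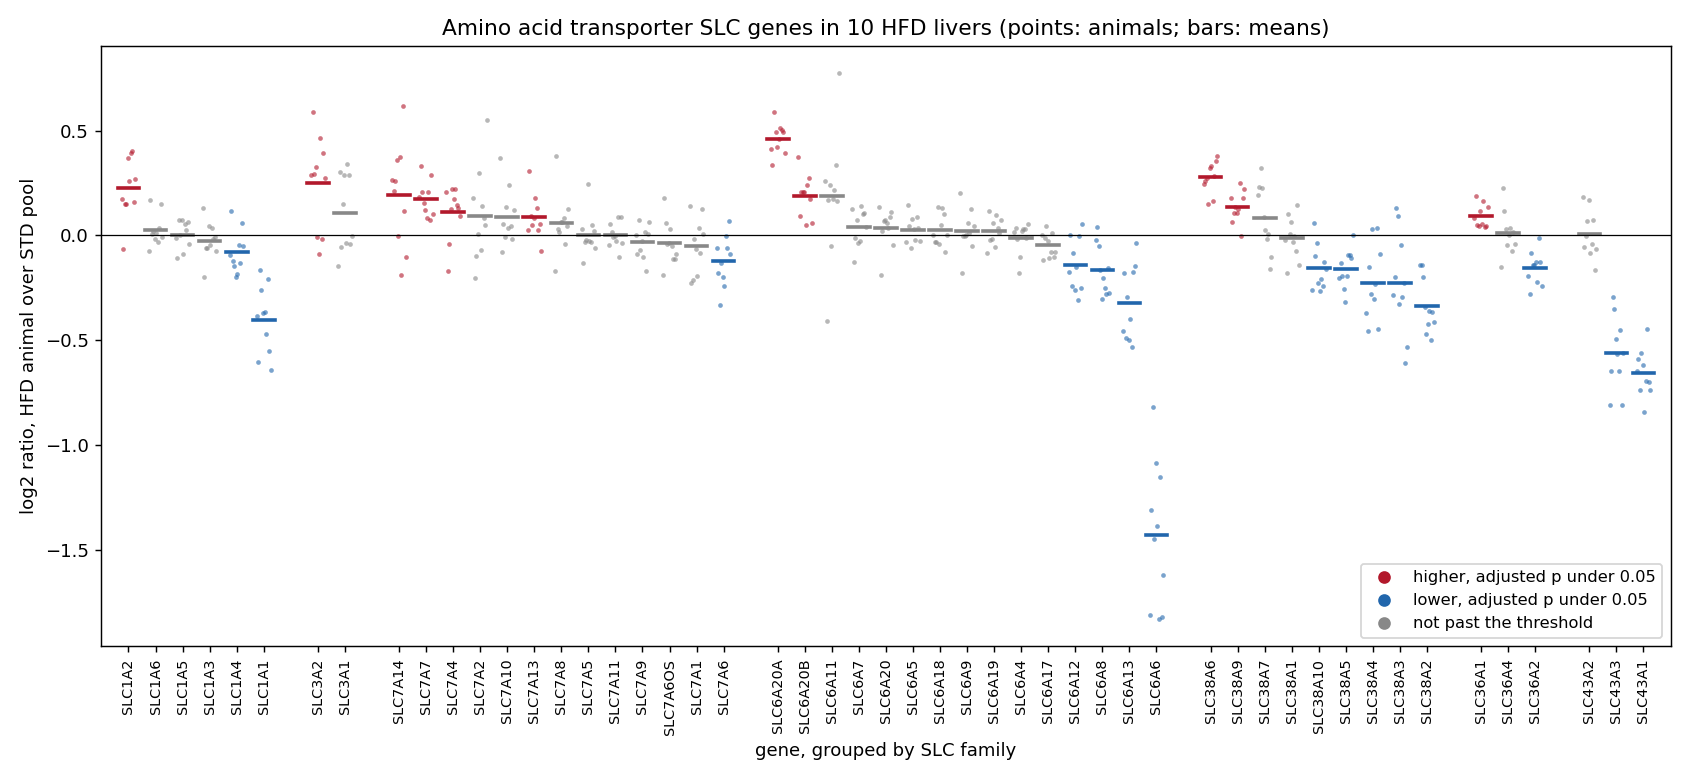
Log2 ratio of HFD animal over STD pool (y axis) for the named tested genes, grouped by family on the x axis. Points are the 10 animals and bars their means, red where higher and blue where lower at an adjusted p under 0.05, grey otherwise. SLC6A6 lies at -1.43, SLC43A1 and SLC43A3 lie below 0 in every animal, and SLC6A20A lies above 0 in every animal.

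All 11 tested of 12 hepatocyte markers were well above background in both RNAs on all 20 arrays, and none of 8 pancreas markers passed the filter. The share of spots well above background on an array was 74.9% to 97.2% for HFD RNA and 74.1% to 95.8% for the pool, and no spot was saturated. A set of 6 arrays, those of animals 5 to 10 with the HFD side in Cy3, stood apart. Their ratios correlated at 0.829 to 0.910 with each other and at 0.324 to 0.764 with the other 14. Among those 14 the correlations were 0.113 to 0.743. The mean correlation with all other arrays was under 0.5 for 3 arrays, of animals 1 and 2, which are among the 14. Without those 3 arrays 16 members were called higher and 15 lower, beside 4583 and 4238 of 13827 genes. The set of 6 enters the mean of every member. Members whose call changed without it are given also on the other 14 arrays, here or below, and most others are not. Uncalled members moved too: SLC7A2 went from 0.09 on all arrays to -0.01 on the 14, and SLC6A11 from 0.19 to 0.09. On these 14 arrays 24.9% of all genes were called higher and 18.3% lower, against 19.2% and 21.2% of the members. On them 20 of the 26 called members passed in the same direction. The 6 that did not were SLC1A4, SLC6A8, SLC7A4, SLC7A13, SLC38A3 and SLC38A10, and SLC38A7, not called on all 20, was called there at 0.31 (adjusted p = 1.55e-06) against 0.08 on all arrays. The 14 arrays hold both arrays of animals 1 to 4, but of animals 5 to 10 only that with HFD in Cy5. Dye was a term of this fit, so that animals 1 to 4 carried more weight. SLC38A7 stood at 0.19 to 0.32 in animals 1 to 4 and at -0.16 to 0.09 in animals 5 to 10. Markers of several cell types moved in the same comparison. Of the 11 hepatocyte markers 6 were lower and 1 higher (range of means -1.17 to 0.27), 7 of 10 periportal hepatocyte markers were lower and none higher (-1.52 to -0.0089), 4 of 8 pericentral ones were lower and 1 higher (-1.35 to 0.18), and 5 of 9 macrophage markers were higher and 3 lower (-1.25 to 1.30). Of T, NK and B cell markers 5 of 6 were lower (-0.13 to -0.05), of erythroid ones 2 of 3 (-0.46 to 0.03), of stellate cell ones 4 of 10 higher and 2 lower (-0.25 to 0.51), and of endothelial ones 3 of 9 higher and 2 lower (-0.19 to 0.25). None was called among 4 cholangiocyte, 3 neutrophil and 4 kidney markers. The part of these in the transporter ratios was not tested.

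Glutamate carriers of the SLC1 family went in both directions. SLC1A1, which takes up glutamate, aspartate and cysteine, stood at -0.39, -0.61, -0.17, -0.26, -0.37, -0.36, -0.47, -0.21, -0.55 and -0.64 in animals 1 to 10. Its mean was -0.40 ± 0.16 (SD, n = 10), 1.32-fold lower, with an adjusted p of 9.87e-06. In the tested probe no animal reached 0. The means of all 11 probes lay below 0 and were called lower, but in some further probes an animal stood above 0, up to 0.10. Probes 26347, 3558 and 76069 share 26 to 51 bases with each other and are not separate readings. By the array's own probe numbers, those numbered 76069 to 76072 gave -0.29 to -0.13 and those numbered 76074 to 76076 gave -0.40 to -0.35 on the same transcript. What the numbers stand for is not stated in the sources used here.

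SLC1A2, the glutamate transporter found in pericentral hepatocytes as well as brain, was higher. The animals ran from -0.07 through a median of 0.22 to 0.40, 9 of 10 above 0, and the mean was 0.23 ± 0.14 (SD, n = 10, adjusted p = 4.57e-04). All 5 of its probes were higher, at 0.18 to 0.26. The authors' deposited log2 ratios gave 0.42 for the same probe. GLUL, the glutamine synthetase of the same pericentral cells, was higher at 0.13 ± 0.16 (SD, n = 10, adjusted p = 0.0211), with values from -0.02 to 0.43. It was the only marker called higher of the 8 pericentral ones tested, and 4 were lower, down to -1.35, so the list shows no common pericentral rise.

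The neutral amino acid exchangers of the family changed less. SLC1A4 was lower at -0.08 ± 0.10 (SD, n = 10, adjusted p = 0.049), with animals from -0.20 through -0.11 to 0.12 and 2 of 10 above 0, and its direction held in 1 dye orientation only, at 0.02 with HFD in Cy5 and -0.18 with HFD in Cy3. Its call was lost on the 14 arrays, at -0.06, and on leaving out any 1 of animals 1, 3, 4, 5, 6, 7, 8 and 10. SLC1A5, the glutamine carrier ASCT2 of many dividing cells, stood at 0.0046, with animals from -0.11 through 0.02 to 0.07 and a 95% interval of the mean from -0.05 to 0.06. The uncalled SLC1A3 and SLC1A6 lay at -0.03 and 0.03.

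SLC3A2, the heavy chain that carries several SLC7 light chains to the cell surface, was higher. Its animals ran from -0.09 through 0.29 to 0.59, with 7 of 10 above 0 and animals 5, 6 and 8 at -0.09 to -0.01. The mean was 0.25 ± 0.22 (SD, n = 10), 1.19-fold, with an adjusted p of 0.00299. All 6 of its probes were called higher, at 0.12 to 0.44, and 3 of the further ones lay above 0 in every animal. The brightest probe was uneven between dyes, at 0.07 with HFD in Cy5 (adjusted p = 0.282) and 0.43 with HFD in Cy3. SLC3A1, the heavy chain of the kidney cystine carrier, did not pass at 0.11 ± 0.18 (SD, n = 10, adjusted p = 0.0839), with animals from -0.15 through 0.08 to 0.34 and 5 of 10 above 0. Its call depended on the setting: the authors' deposited log2 ratios gave 0.32 (adjusted p = 0.0243) and the processed signals 0.35 (adjusted p = 0.0415) for the same probe, the 14 arrays gave 0.04 (adjusted p = 0.664), and its other probe was called higher at 0.09.

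SLC7A5, the leucine and aromatic amino acid light chain LAT1, is a case in which probes of 1 transcript disagreed in size. Its brightest probe stood at 0.0047 ± 0.10 (SD, n = 10), with animals from -0.13 through a median of -0.03 to 0.24 and a 95% interval of the mean from -0.06 to 0.07. The 5 further kept probes, all on the same assembled transcript, were higher at 0.19 to 0.33, each past the threshold. The next brightest stood at 0.33 ± 0.14 (SD, n = 10), above 0 in 10 of 10 animals and in both orientations, at 0.30 and 0.36. These further probes were well above background in the pool on 19, 8, 6, 3 and 0 of 20 arrays, and for the last only a bound exists. Those under 10 arrays in the pool passed the filter only through the HFD RNA, the side on which they were higher. Their direction was thus partly set by the filter and adds no separate support for a rise.

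Among the other SLC7 genes, the light chain y+LAT1, SLC7A7, which exports arginine and lysine in exchange for neutral amino acids, was higher in all 10 animals. They ran from 0.07 through 0.17 to 0.33, with a mean of 0.17 ± 0.09 (SD, n = 10, adjusted p = 1.92e-04). Of its 7 further probes 4 were higher past the threshold, up to 0.39, and none was lower.

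SLC7A14 and SLC7A4, members of the cationic amino acid branch, were also called higher. SLC7A14 stood at 0.19 ± 0.24 (SD, n = 10, adjusted p = 0.0234) with animals from -0.19 through 0.24 to 0.62. Its next brightest probe lay at -0.02, and the call was lost without animal 4, 6 or 8. SLC7A4 stood at 0.11 ± 0.13 (SD, n = 10, adjusted p = 0.022), with animals from -0.17 through 0.14 to 0.22. Of its further probes 2 of 4 were higher too, and the call was lost without animal 5 or 7 and on the 14 arrays, at 0.05.

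SLC7A2, the CAT2 carrier through which hepatocytes take up arginine and lysine, was not called. Its 12 probes gave means from -0.15 to 0.17, and the brightest stood at 0.09 ± 0.22 (SD, n = 10, adjusted p = 0.191), at -0.06 with HFD in Cy5 and 0.25 with HFD in Cy3. Its 95% interval ran from -0.04 to 0.22, with animals from -0.20 through 0.07 to 0.55. ARG1, the urea cycle enzyme that splits arginine, was lower in the same animals by a mean of -1.15 ± 0.27 (SD, n = 10, adjusted p = 6.62e-08).

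The cystine and glutamate exchanger SLC7A11 stood at 0.0023 ± 0.06 (SD, n = 10), with animals from -0.10 through -0.0063 to 0.09 and a 95% interval of the mean from -0.05 to 0.05. SLC7A1, SLC7A8 and SLC7A9, carriers of cationic, large neutral and dibasic amino acids, did not pass either. SLC7A1 stood at -0.05, with animals from -0.23 through -0.04 to 0.14, SLC7A8 at 0.06, from -0.17 through 0.05 to 0.38, and SLC7A9 at -0.03, from -0.17 through -0.01 to 0.07. SLC7A6 was lower at -0.12 and SLC7A13 higher at 0.09, the latter at 0.15 in the authors' deposited log2 ratios, not called on the 14 arrays, at 0.07, and lost without animal 2, 3, 5, 6 or 7. SLC7A10 and SLC7A6OS were not called.

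SLC6A6 gave the largest ratio of all members. Read by its brightest probe, the taurine transporter stood at -1.81, -1.31, -0.82, -1.45, -1.09, -1.39, -1.83, -1.15, -1.82 and -1.62 in animals 1 to 10. Its mean was -1.43 ± 0.35 (SD, n = 10), 2.69-fold lower, with an adjusted p of 6.62e-08, and the orientations gave -1.45 and -1.41. The 6 further probes on the same transcript lay between 0.05 and 0.27, and 5 of them were higher past the threshold, so that probes of 1 transcript were called in opposite directions.

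The second brightest SLC6A6 probe, number 86131, ran from 0.05 through 0.15 to 0.33, above 0 in every animal, with a mean of 0.17 ± 0.09 (SD, n = 10). Probe 86129 ran from 0.10 through 0.17 to 0.52, also above 0 in every animal. Their sequences, printed above with that of the tested probe, share no run of 20 bases with it or with any other probe on the array. The mean over all kept probes of the gene was -0.04 (adjusted p = 0.206). CDO1 and CSAD, the latter chosen after its values were seen, are enzymes that make taurine from cysteine and were lower at -0.91 ± 0.38 and -0.25 ± 0.15 (SD, n = 10 each).

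**Figure D2:**
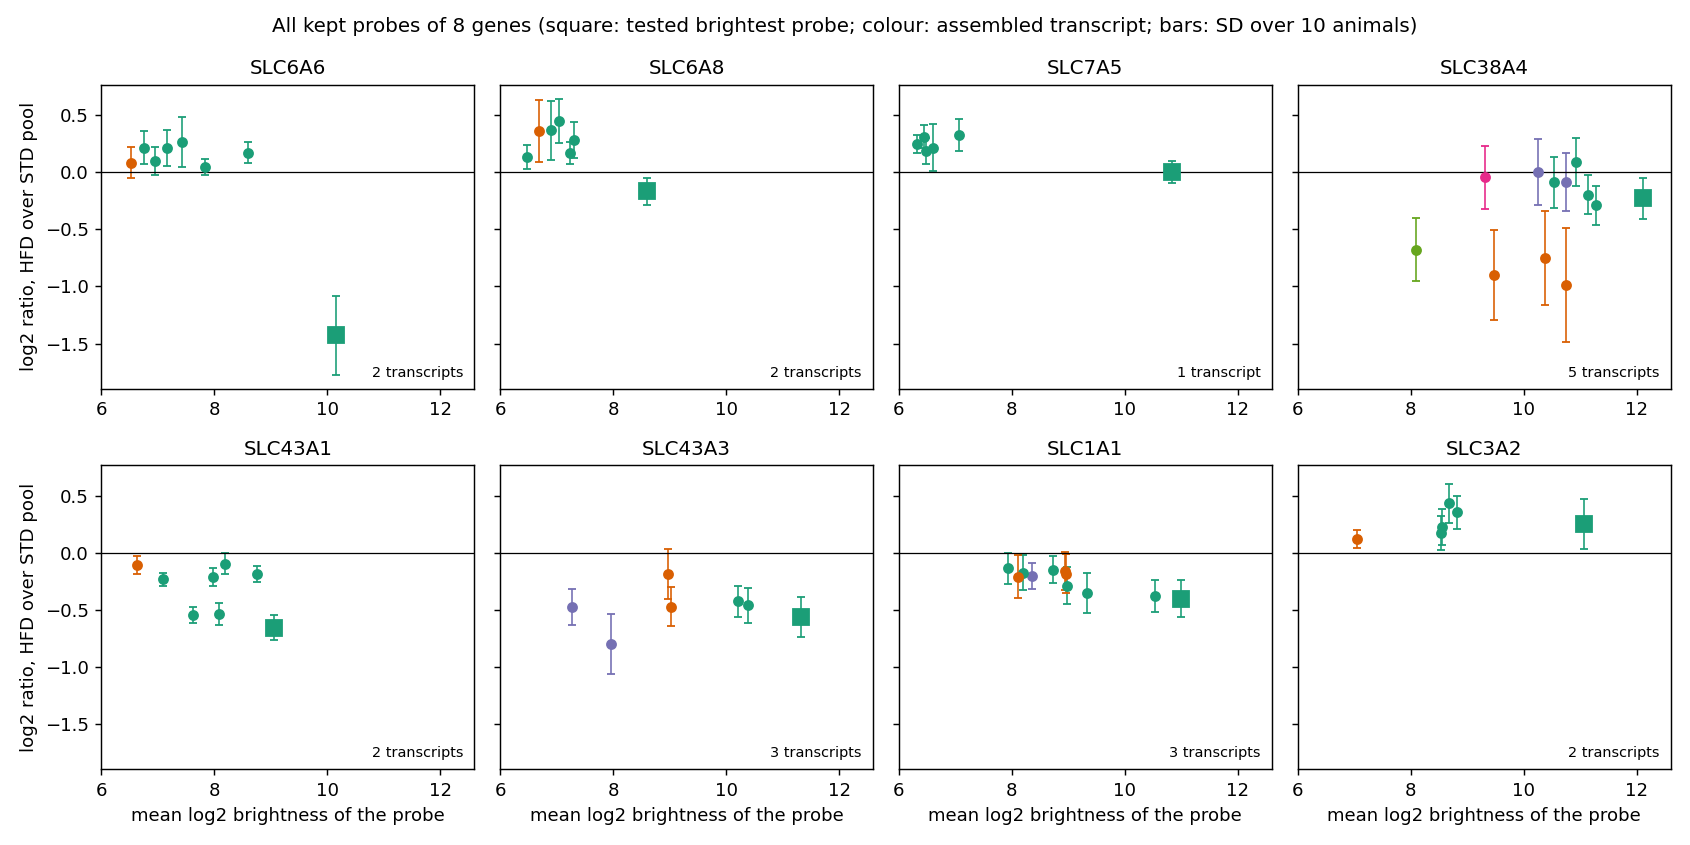
Mean log2 ratio of HFD over STD pool (y axis) against mean log2 brightness (x axis) for every kept probe of 8 genes. Squares are the tested brightest probes, colours assembled transcripts, and bars the SD over 10 animals. The tested probe of SLC6A6 at -1.43 stands against further probes at 0.05 to 0.27, whereas all probes of SLC43A1, SLC43A3 and SLC1A1 lie below 0 and all of SLC3A2 above it.

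SLC6A8, the creatine transporter, also reversed between probes. The brightest was lower, from -0.30 through -0.19 to 0.04 in the animals, with a mean of -0.17 ± 0.12 (SD, n = 10, adjusted p = 0.00152). It was not called on the 14 arrays, at -0.02. All 6 further probes were higher past the threshold, at 0.14 to 0.45. Probe 84385 of the same transcript, printed above, ran from 0.22 through 0.41 to 0.74 and was above 0 in both orientations. The tested probe is the reverse complement over 20 bases of a probe to an unnamed transcript.

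SLC6A13 and SLC6A12, related members that carry GABA, taurine and betaine into liver cells, were both lower. SLC6A13 ran from -0.53 through -0.35 to -0.03, below 0 in all animals, with a mean of -0.32 ± 0.18 (SD, n = 10, adjusted p = 1.14e-04), and its 4 probes lay at -0.37 to -0.13. SLC6A12 stood at -0.14 ± 0.13 (SD, n = 10, adjusted p = 0.00592), with animals from -0.31 through -0.16 to 0.05, but at -0.31 with HFD in Cy5 and 0.02 with HFD in Cy3. Its probe on the opposite strand, the partner printed above, was lower at -0.28 ± 0.23, and its remaining probe lay at 0.06.

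SLC6A20A was the member with the largest rise. Its single probe stood at 0.41, 0.34, 0.59, 0.49, 0.42, 0.46, 0.51, 0.50, 0.49 and 0.40 in animals 1 to 10. It was above 0 in every animal, with a mean of 0.46 ± 0.07 (SD, n = 10), 1.38-fold, and an adjusted p of 1.90e-08. The orientations gave 0.56 and 0.37, and the 14 arrays 0.46. The SLC6A20 probe that reads the opposite strand of the same sequence stood at -0.03 ± 0.07 (SD, n = 10), from -0.14 to 0.10, so that the values of the partners did not overlap. The SLC6A20 partner was dim, at a mean log2 brightness of 6.90 against 10.18 for the SLC6A20A probe. Dim probes carry only small ratios, so its value does not show that the opposite strand was unchanged. The other 3 SLC6A20 probes gave -0.07 to 0.04. SLC6A20B was called higher at 0.19 ± 0.10 (SD, n = 10, adjusted p = 2.21e-04), with animals from 0.05 through 0.21 to 0.38, but at 0.36 with HFD in Cy5 and 0.02 with HFD in Cy3, and its second probe lay at -0.02.

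The other SLC6 genes tested, carriers mostly known from nerve, kidney or gut, did not pass. SLC6A4, SLC6A5, SLC6A7, SLC6A9, SLC6A17, SLC6A18, SLC6A19 and SLC6A20 lay between -0.05 and 0.04 by their brightest probes. Further probes were called in SLC6A9, all 3 of them lower at -0.27 to -0.13, in SLC6A17, 1 higher at 0.10, in SLC6A4, 1 each way at -0.10 and 0.17, and in SLC6A7, 1 lower at -0.12. SLC6A11, a GABA carrier, stood at 0.19 ± 0.30 (SD, n = 10, adjusted p = 0.0569), with animals from -0.41 to 0.77, at 0.46 with HFD in Cy5 and -0.09 with HFD in Cy3.

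SLC38A2, SLC38A3 and SLC38A4, the members of the family best known from liver, were lower by their brightest probes. SLC38A3, the glutamine carrier SNAT3 of periportal cells, stood at -0.23 ± 0.24 (SD, n = 10, adjusted p = 0.00888), with animals from -0.61 through -0.25 to 0.13 and 8 of 10 below 0. All 8 of its probes lay below 0, and 6 of the 7 further ones were called lower. The orientations of the brightest gave -0.38 and -0.07, and on the 14 arrays it was not called, at -0.03.

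SLC38A4, the liver's SNAT4, differed by assembled transcript. The tested probe, on a transcript with 5 probes at -0.29 to 0.09, stood at -0.23 ± 0.18 (SD, n = 10, adjusted p = 0.00179). Its animals ran from -0.45 through -0.26 to 0.04, 8 of 10 of them below 0. The 3 probes of another transcript, 1 of them printed above, were lower at -0.99 to -0.75, each below 0 in all 10 animals. A probe of another transcript stood at -0.68, and 3 probes of the remaining 2 transcripts at -0.08 to 0.0039, not called. The strongly lower probes were uneven between dyes. Probe 43610 had -0.63 with HFD in Cy5 and -1.17 with HFD in Cy3.

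SLC38A2, the amino acid-responsive system A carrier SNAT2, was lower by its brightest probe. Animals 1 to 10 stood at -0.14, -0.14, -0.20, -0.34, -0.47, -0.42, -0.36, -0.50, -0.36 and -0.41. All were below 0, with a mean of -0.33 ± 0.13 (SD, n = 10, adjusted p = 1.02e-05). Its 3 further probes, on 3 other transcripts, lay at -0.10 to 0.12, and 1 was called lower. On the 14 arrays it stood at -0.20 and was still called. With all probes averaged the gene was at -0.06 and not called.

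SLC38A5 stood at -0.16 ± 0.09 (SD, n = 10, adjusted p = 5.80e-04), with animals from -0.32 through -0.16 to 0.0027 and its other probe at -0.01, not called. The authors' deposited log2 ratios gave -0.31 for the first. SLC38A10 was lower at -0.16 by its brightest probe, and its 3 further probes were called lower too. On the 14 arrays it stood at -0.09 and was not called.

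Of the 2 rising members, SLC38A6 ran from 0.15 through 0.28 to 0.38, above 0 in every animal, with a mean of 0.28 ± 0.08 (SD, n = 10, adjusted p = 2.18e-06) and a second probe at 0.15. The authors' deposited log2 ratios gave 0.54 for the first. SLC38A9, the lysosomal arginine sensor that signals to mTORC1, stood at 0.14 ± 0.07 (SD, n = 10, adjusted p = 6.39e-04), with animals from -0.002 through 0.13 to 0.25, 9 of 10 above 0. Its other probe was also higher, at 0.24. SLC38A1 and SLC38A7 were not called on all arrays.

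SLC36A1, the proton-coupled carrier of lysosomes and gut, was called higher at 0.09 ± 0.06 (SD, n = 10, adjusted p = 0.00394), with animals from 0.04 through 0.07 to 0.19, all above 0. Its second brightest probe, on another transcript, was lower at -0.09, as was another at -0.15. SLC36A2, with 1 probe, was lower at -0.16, and the authors' deposited log2 ratios gave -0.26 for it. That probe shares 28 bases on the same strand with a probe named SLC36A1, which stood at -0.0060 and was not called. The latter is the reverse complement over 45 bases of another SLC36A1 probe, at 0.07 and not called. Both the gene and the strand that the SLC36A2 probe reads are thus uncertain. SLC36A4 was not called.

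SLC43A1 and SLC43A3 were lower in every animal by their tested probes, and lower by the mean of every probe. SLC43A1, the LAT3 carrier that moves leucine, isoleucine, valine and phenylalanine, stood at -0.64, -0.59, -0.74, -0.56, -0.62, -0.84, -0.69, -0.45, -0.70 and -0.74 in animals 1 to 10. Its mean was -0.66 ± 0.11 (SD, n = 10), 1.58-fold lower, with an adjusted p of 9.03e-09. All 8 probes were lower past the threshold. Probes numbered 81947 to 81949 gave -0.66 to -0.54, and those numbered 81941 to 81944, on the same transcript, gave -0.23 to -0.09.

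SLC43A3, a carrier of purine bases, stood at -0.81, -0.65, -0.29, -0.35, -0.49, -0.56, -0.65, -0.45, -0.81 and -0.56 in animals 1 to 10. In the tested probe of either gene no animal reached 0. In some further probes an animal stood above 0, up to 0.13 in SLC43A3 and 0.02 in SLC43A1. The mean of SLC43A3 was -0.56 ± 0.17 (SD, n = 10), 1.48-fold lower, with an adjusted p of 8.37e-07. All 7 of its probes on 3 transcripts were lower, at -0.80 to -0.18. Among them, probes 46927 at -0.18 and 51928 at -0.47, on different transcripts, are reverse complements over 20 bases and read opposite strands there. The third member, SLC43A2, stood at 0.0092 and was not called, whereas 6 of its 9 further probes were higher and 1 lower, at -0.39 to 0.39.

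Over the members as a whole, 224 of 247 probes passed the filter, and 57 were called higher and 66 lower, 54.9% together, against 26.7% higher and 28.4% lower over all 103886 kept probes, 55.1% together. Of the 26 called members 22 had further kept probes. In 15 of these the further probes that were called all went with the tested one, in 3 (SLC6A6, SLC6A8 and SLC36A1) at least 1 was called the opposite way, and in 4 none was called. The share of such opposed genes was 22.8% among all called genes on the array that had more than 1 kept probe. When each gene was read by its second brightest probe, 14 of 45 members were higher and 13 lower, with 30.3% and 28.1% over all genes. Of the members, 6 had at least 3 kept probes that all lay below 0 (SLC1A1, SLC6A13, SLC38A3, SLC38A10, SLC43A1 and SLC43A3), and 5 had at least 3 that all lay above it (SLC1A2, SLC3A2, SLC7A4, SLC7A5 and SLC36A4). Most further probes of SLC7A5 passed the filter only through the HFD RNA. The share over all genes with at least 3 kept probes is not given here, so these counts show nothing particular to the members.

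The dye orientations, taken one at a time, gave a call in the same direction for 5 higher members (SLC1A2, SLC6A20A, SLC7A7, SLC38A6 and SLC38A9) and 11 lower ones (SLC1A1, SLC6A6, SLC6A8, SLC6A13, SLC7A6, SLC36A2, SLC38A2, SLC38A4, SLC38A5, SLC43A1 and SLC43A3). The share of all genes called in both orientations is not given here, so these counts show no lean of the members. With HFD in Cy5 alone, 18 members were higher and 14 lower, beside 4081 and 3082 of 13827 genes. With HFD in Cy3 alone, 10 were higher and 17 lower, beside 4264 and 4471. For 3 called members, SLC1A4, SLC6A12 and SLC7A13, the orientation means had opposite signs.

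**Figure D3:**
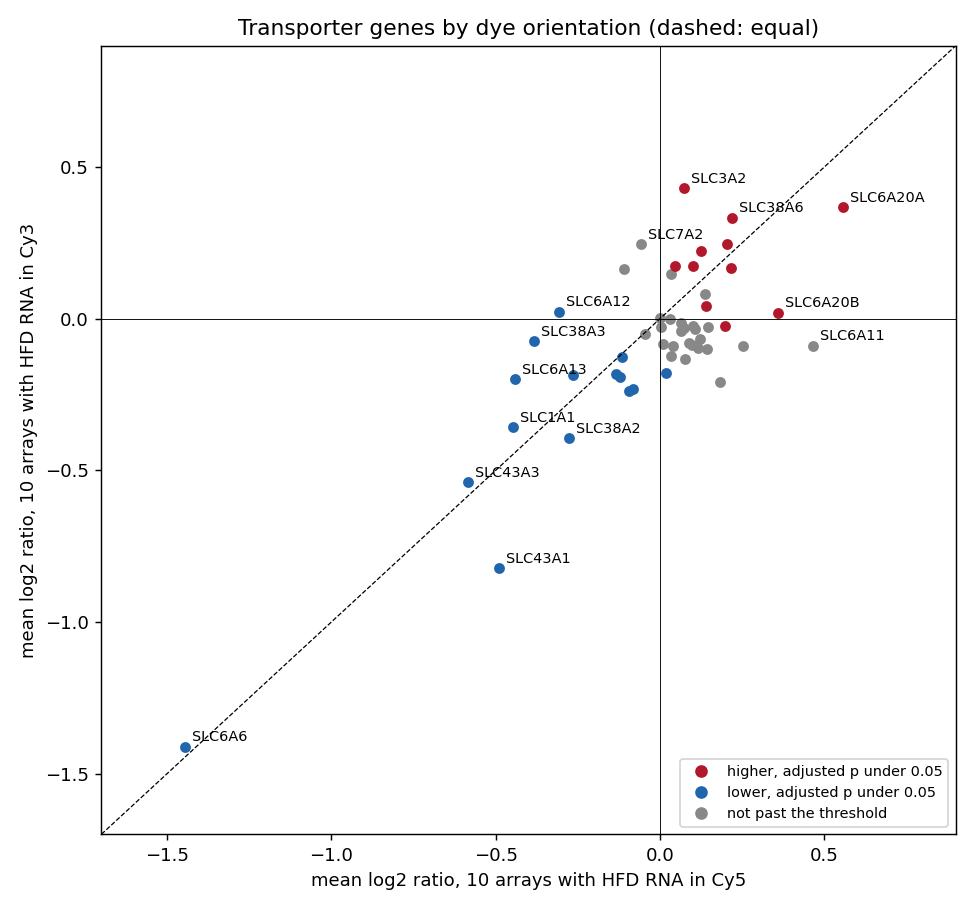
Mean log2 ratio of each of the 52 genes, read by its brightest probe, on the 10 arrays with HFD RNA in Cy5 (x axis) and the 10 with HFD RNA in Cy3 (y axis). The dashed line marks equal values, with red and blue for higher and lower genes and grey for genes not called. SLC6A6 and SLC43A3 lie near the line, while SLC3A2 lies at 0.07 and 0.43 and SLC6A11 at 0.46 and -0.09.

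Other genes of amino acid handling were set beside the carriers through 6 lists. Of 21 tested genes of the amino acid response, the programme through which cells short of amino acids raise carriers and synthetic enzymes by way of the factor ATF4, 7 were higher and 6 lower. These counts, and those of the lists that follow, stand beside 31.4% higher and 28.9% lower over all genes, and the shares of this list were close to them. TRIB3 and DDIT3, stress targets of that factor, were higher at 0.65 ± 0.43 and 0.67 ± 0.41, and ASNS, asparagine synthetase, at 0.32 ± 0.13 (SD, n = 10 each). PSAT1 of serine synthesis was lower at -1.36 ± 0.21 and ATF5 at -0.81 ± 0.16. ATF4 itself was lower at -0.47 ± 0.26. ATF4 and DDIT3, and SLC16A10 below, were chosen after their values were seen.

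Of 26 tested genes that pass amino acid supply to mTORC1, 9 were higher and 4 lower, with the largest changes in FNIP1 at 0.77 ± 0.22 and RRAGC, a Rag GTPase, at 0.75 ± 0.14 (SD, n = 10 each). Among 17 other amino acid carriers and helpers 5 were higher and 5 lower. The mitochondrial glutamate carrier SLC25A22 stood at -0.50 ± 0.27 and the aspartate and glutamate carrier SLC25A13 at -0.42 ± 0.23. The aromatic amino acid carrier SLC16A10 was higher at 0.41 ± 0.19.

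Of 16 glutamine and glutamate enzymes 9 were higher and 2 lower, led by PRODH, the first enzyme of proline breakdown, at 1.11 ± 0.13, and GPT2, an alanine aminotransferase, at 0.38 ± 0.19. For glutathione synthesis and cysteine supply the counts were 5 higher and 3 lower of 9. CDO1 stood at -0.91 ± 0.38 and GSS, glutathione synthetase, at 0.54 ± 0.55 with animals from -0.51 to 1.29. All 6 urea cycle genes were tested, of which 5 were lower and none higher, with ARG1 at -1.15 ± 0.27 and ASS1 at -1.08 ± 0.22 (SD, n = 10). The list medians were -0.04, 0.0084, 0.03, 0.14, 0.09 and -0.32 in the order given, beside 0.010 for the carriers.

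**Figure D4:**
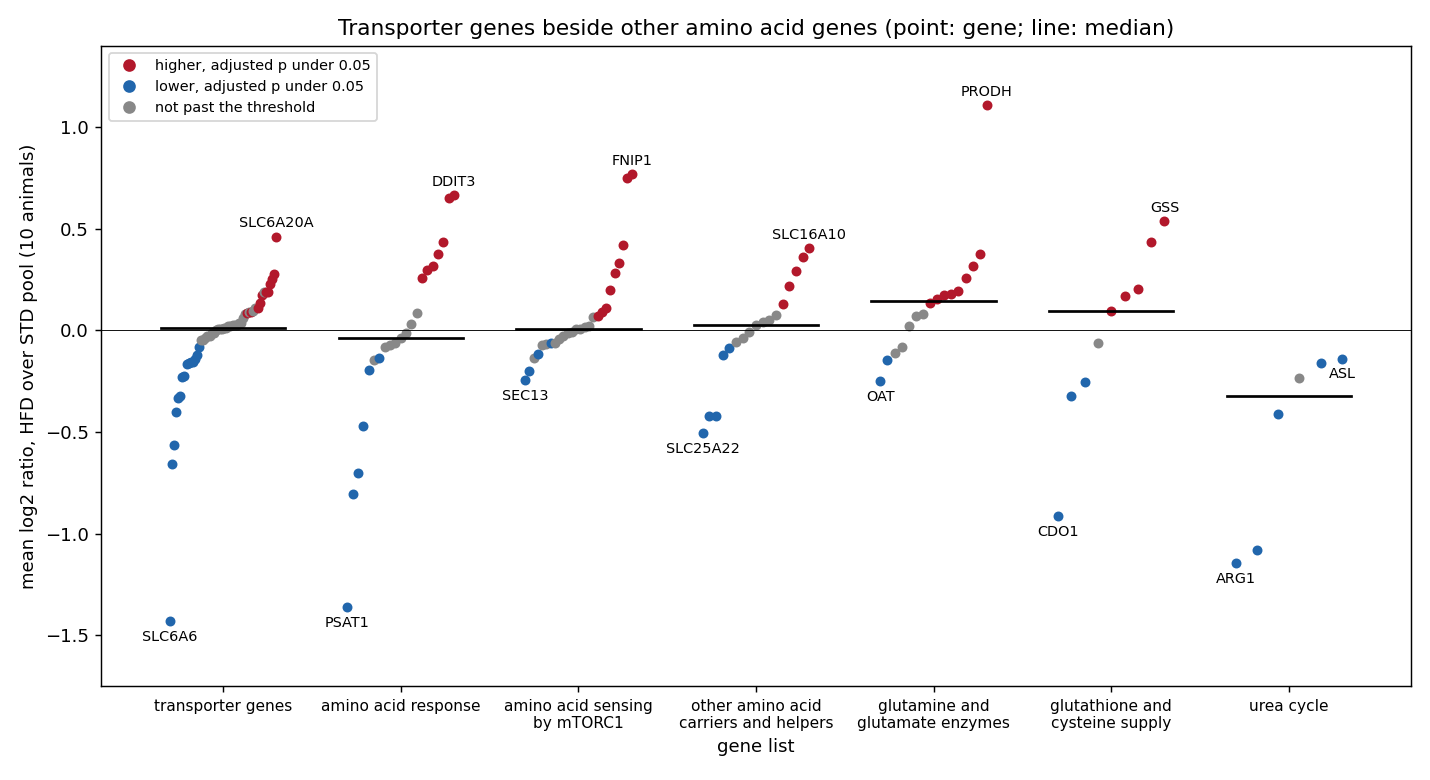
Mean log2 ratio of HFD over STD pool in 10 animals (y axis) for the transporter genes and 6 other lists of amino acid genes (x axis), 1 point per gene, with the line at the list's median. Red and blue mark genes higher and lower at an adjusted p under 0.05. The urea cycle list has a median of -0.32, with ARG1 at -1.15, and the transporter genes a median of 0.010.

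Whether carriers varied together with their partners from animal to animal was examined for 6 pairs over the 10 animals. No pair passed after Benjamini-Hochberg adjustment over the 6. Each gene was read by its brightest probe. Further probes of SLC38A2, SLC38A4 and SLC7A5 gave other ratios, as described above, so their correlations hold for the probes used. SLC38A2 and SLC38A4 gave Pearson r = -0.65 (permutation p = 0.0447, adjusted 0.163) and Spearman rho = -0.68 (permutation p = 0.0349, adjusted 0.21). Without animals 1 and 2, the farthest from the median of SLC38A2, r was -0.43 (exact permutation p = 0.293), and within animals 5 to 10 it was -0.83 (exact permutation p = 0.0458). The heavy chain SLC3A2 and the light chain SLC7A5 gave r = -0.60 (permutation p = 0.0544, adjusted 0.163) and rho = -0.52 (permutation p = 0.132, adjusted 0.264). For this pair r was -0.87 without animals 6 and 8, the farthest from the median of SLC3A2 (exact permutation p = 0.0126). Within animals 5 to 10 it was -0.43 (exact permutation p = 0.457). Animal 5, whose SLC7A5 value lay far from the others, was kept in both. SLC1A2 with GLUL, SLC3A2 with ASNS, SLC7A11 with TRIB3 and SLC7A2 with ARG1 gave r of -0.19, -0.26, 0.44 and -0.50 and rho of -0.25, -0.42, 0.26 and -0.59, with adjusted permutation p of 0.587, 0.582, 0.318 and 0.271 for r. Within animals 5 to 10 their r was 0.28, -0.44, 0.58 and -0.0024. The ratios of an animal share its arrays and the pool.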

How the data were processed

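Liver RNA of 10 HFD hamsters and a pool of 10 STD hamsters was compared on 20 two-colour Agilent arrays of 170327 spots. Per the labels' protocols, RNA was purified on columns and 100 ng was labelled. Scanner intensity values were deposited as Agilent Feature Extraction 10.7.3.1 wrote them. Its processed signals are background-subtracted and LOWESS dye-normalized, per the file headers, and served as an alternative. The authors' deposited log2 ratios, 1 per animal, were another alternative. The submitters' processing notes name limma without a version. The scale and centring of those log2 ratios are not stated: their column medians for animals 1 to 10 were -1.28e-04, -0.0145, -4.92e-04, -0.00171, 0.0185, -0.0122, -0.00991, 0.0075, -0.0012 and -0.0103, they correlated with the ratios used here at 0.881 to 0.948, and their direction was set by that match. The dye of each RNA was taken from the deposited name of each array, on which every direction rests.

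Mean intensity was corrected with normexp (offset 50) and normalized by loess within arrays, controls at weight 0, in limma 3.58.1 (R 4.3.3). Spots of a probe were averaged, arrays turned to HFD over pool, and both arrays of an animal averaged to 1 replicate. A probe was kept if well above background in either RNA on at least 10 of 20 arrays, with a value on all 20. The brightest kept probe stood for a gene. Levels of different probes were not compared as amounts of RNA. Means were tested against 0 with lmFit and eBayes, adjusted by Benjamini-Hochberg over 13827 genes at 0.05. The same test adjusted over 103886 probes gave probe calls. The labels call the animals separate samples and name no pairing. The number of arrays limits the precision. The test was run on simulated data first.

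Members and lists were chosen with earlier results of these data known. Named were the 10 highest and 10 lowest called members, liver textbook carriers whatever their values, the 2 largest called changes of each pathway list, and GLUL, ASNS, TRIB3 and ARG1. Other members were named to complete the counts, and 1 that was not called is not reported here by name. Shared sequence means a run of at least 20 bases. Correlations used 100000 resamples. Alternatives changed background correction, normalization, values, probe choice, filter, variance model, dye, animals, blocks, arrays and scan session. No genome was used, so probes have no position.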

Additional observations from a re-analysis of the deposited data

Results flagged for a closer look

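The brightest SLC7A5 probe stood at 0.24 in animal 5, far from the other 9 animals, which lay between -0.13 and 0.05. The gap was 0.511 of the whole range, above Dixon's critical value for 10 samples. Chance marks about 1 in 20 groups in this way, and 52 genes were examined. Without animal 5 the mean of SLC7A5 was -0.02 and still not called (adjusted p = 0.483).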

How the results depend on the processing

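With HFD RNA in Cy5 only, 18 members were called higher in place of 11, and 4081 of all 13827 genes in place of 4343. Over all settings run, 8 to 18 members were called higher and 11 to 17 lower. Beside these stood 3187 to 5041 genes higher and 2529 to 4667 lower, of 11052 to 14411 tested. With 1 animal left out in turn it was 9 to 13 and 14 to 15 members, beside 4054 to 4497 and 3755 to 4050 genes. The sign of several single members turned with the probe or dye. Read by their second brightest probe, a setting chosen after seeing the data, SLC6A6 stood at 0.17, SLC6A8 at 0.28, SLC38A2 at 0.12, SLC36A1 at -0.090, SLC7A14 at -0.020 and SLC6A20B at -0.022. With the mean of all probes SLC6A8 stood at 0.23 and SLC36A1 at -0.019, and with the stricter filter SLC7A14 at -0.020. SLC1A4 was at 0.020 with HFD in Cy5 only and SLC6A12 at 0.024 with HFD in Cy3 only. With the authors' ratios SLC3A2 and SLC7A5 correlated at -0.73 (adjusted permutation p = 0.0292), the only pair to pass in the settings run. This rests on the brightest SLC7A5 probe, from which the further probes of that gene differed. The fit on 14 arrays and those by scan session were added after seeing the data. No scan session held both arrays of an animal, so the planned fit per session was not run. Slide and animal as random blocks gave correlations of -0.11 and 0.19. No paired analysis was possible because the animals form 1 group against a pool. The spread among STD animals is not measured, and dim probes carry only small ratios.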
